A study of Homo sapiens with 12 samples.

Results

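The ATP-binding cassette (ABC) transporters were followed across 4 exposures in DLD1, an established line of human colon adenocarcinoma. Members were taken as every gene symbol made of ABC, a subfamily letter from A to G and a number, with a mean over all 12 libraries of at least 0.5 CPM, the read count scaled to a common library size. Of 46 such symbols among the 26485 symbols counted, 28 met this level. They were divided into 8 drug efflux pumps and 20 other members, of which 8 move lipids, sterols or bile lipids, 8 sit in mitochondrial, peroxisomal or lysosomal membranes, and 4 are soluble proteins of translation.

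The cells were exposed for 1 h to the vehicle DMSO, to TCDD (2,3,7,8-tetrachlorodibenzo-p-dioxin, a synthetic agonist of the aryl hydrocarbon receptor, AHR), to kynurenine (a tryptophan metabolite that can act on the same receptor) or to CH223191 (a synthetic AHR antagonist). Each chemical was used at 10 µM, and each group held 3 RNA sequencing libraries. All 4 groups are DLD1 cells, so the values describe a single tumour line. Whether the 3 libraries of each group are separate cultures is not in the labels, and the p-values below measure only the spread between these libraries, which may be technical.

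An ABC transporter is built from nucleotide-binding domains that bind and split ATP and, in most members, membrane domains that carry the substrate across a bilayer. In the intestinal epithelium the pumps ABCB1 (P-glycoprotein), ABCG2 (breast cancer resistance protein) and ABCC2 sit on the luminal face and return drugs and plant toxins to the gut lumen, while ABCC1 and ABCC3 sit on the basolateral face. Other members load cholesterol and phospholipids onto acceptors outside the cell, or serve mitochondria, peroxisomes and lysosomes, and ABCE1 and the ABCF proteins carry no membrane domain and act on ribosomes. AHR, when bound by an agonist, pairs with ARNT and binds DNA at a short core, GCGTG, and ABCG2 is a known AHR target.

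ABCG2 was the only member called with both TCDD and kynurenine, so the stretch of DNA ahead of 1 of its annotated starts is shown with the AHR core in capitals (GCGTG, or CACGC where the core lies on the opposite strand). RefSeq (GRCh38.p14) gave ABCG2 5 start windows, each from 250 bases before to 50 after a start, and 3 of them held the core. The stretch printed is the 250 bases before a start at chr4:88158910-88159159, minus strand, within the ABCG2 gene as GENCODE annotates it (chr4:88090150-88231628). Among the windows it held the most matches ahead of the start, and was chosen after these were counted. The matches begin at bases 53 and 187 of the printed stretch, counted from its 5′ end. Shorter stretches from ABCB1 and ABCC4, pumps that were not called with either agonist, are given beside it.
ABCG2 upstream window: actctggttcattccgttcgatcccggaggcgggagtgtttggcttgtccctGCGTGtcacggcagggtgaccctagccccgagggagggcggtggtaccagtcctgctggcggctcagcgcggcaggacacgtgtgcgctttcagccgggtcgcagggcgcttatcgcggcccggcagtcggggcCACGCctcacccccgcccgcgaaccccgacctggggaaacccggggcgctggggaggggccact
ABCB1 match 1, chr7:87600923-87600947, minus strand: cagcgccgggGCGTGggctgagcac
ABCC4 match 1, chr13:95301554-95301578, minus strand: gccgcgctcgCACGCggtgcgcagc
ABCC4 match 2, chr13:95301471-95301495, minus strand: cggggacgggGCGTGccgccggcgc

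The core is short and common. Of the 28 members, 22 had a start window in the RefSeq table, and 16 of these, 72.7%, held GCGTG on either strand in at least 1 window. The same held for 58.1% of the 10047 tested genes with a window and for 40.6% of all 27305 genes in the table. The longer form TNGCGTG, with N any base, was in a window of 2 of 35 ABC symbols of any level. That is 5.71%, against 6.69% of all genes in the table. None of the matches printed above has this longer form. ABCE1 held 4 distinct matches, ABCA3, ABCB9, ABCC10 and ABCC4 held 3 each, and ABCG2 held 4 over its 5 windows. A match is a description of these letters and not a measured binding site, and a window without one says only that the letters are not in it.

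Libraries held 21397703 to 28247146 reads counted to genes, and the members together took 0.178 to 0.188% of them. Of 10 markers of intestinal epithelium, 8 exceeded 1 CPM, among them EPCAM (1270 CPM), CDH1 (790 CPM) and CDX2 (123 CPM), while CDX1 and LGALS4 stayed at 0.0476 and 0.427 CPM. Of 12 markers of fibroblasts, immune cells and endothelium, 2 exceeded 1 CPM (LYZ and CD68), DCN had 0 reads, and their summed level was 7.39 to 16.9 CPM per library. Kynurenine replicate 1 stood apart from the other 2 kynurenine libraries: the variance of its counts was 4.65 and 4.6 times Poisson noise against them, where the other 10 pairs within a group gave 1.76 to 4.04. The main kynurenine results for members are therefore also given without it. CYP1A1, the cytochrome P450 that most directly reports AHR activity, served as a check of the exposures and averaged 3.22 CPM in the vehicle group. It averaged 428 CPM with TCDD, 10.1 CPM with kynurenine and 0.52 CPM with CH223191.

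The order of the members by level was read per length, as CPM per kilobase of the canonical transcript (RPKM), in DMSO. The soluble members ABCE1, which recycles ribosomes, and ABCF1, which acts in translation initiation, led with 104 ± 2.2 (SD, n = 3) and 71.4 RPKM. Among the pumps ABCC4, an exporter of cyclic nucleotides and organic anions, and ABCB1 stood highest at 25.6 ± 0.227 and 25.2 ± 0.535 RPKM (SD, n = 3), a difference within the sum of their SDs. They were followed by ABCC1, the glutathione-conjugate exporter, at 17.7 RPKM, and then by ABCC5, ABCC10 and ABCC3 at 7.55, 6.51 and 4.61 RPKM. ABCG2 was low at 0.76 ± 0.0479 RPKM (SD, n = 3), and ABCC2 at 0.126 RPKM was the lowest pump.

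**Figure D1:**
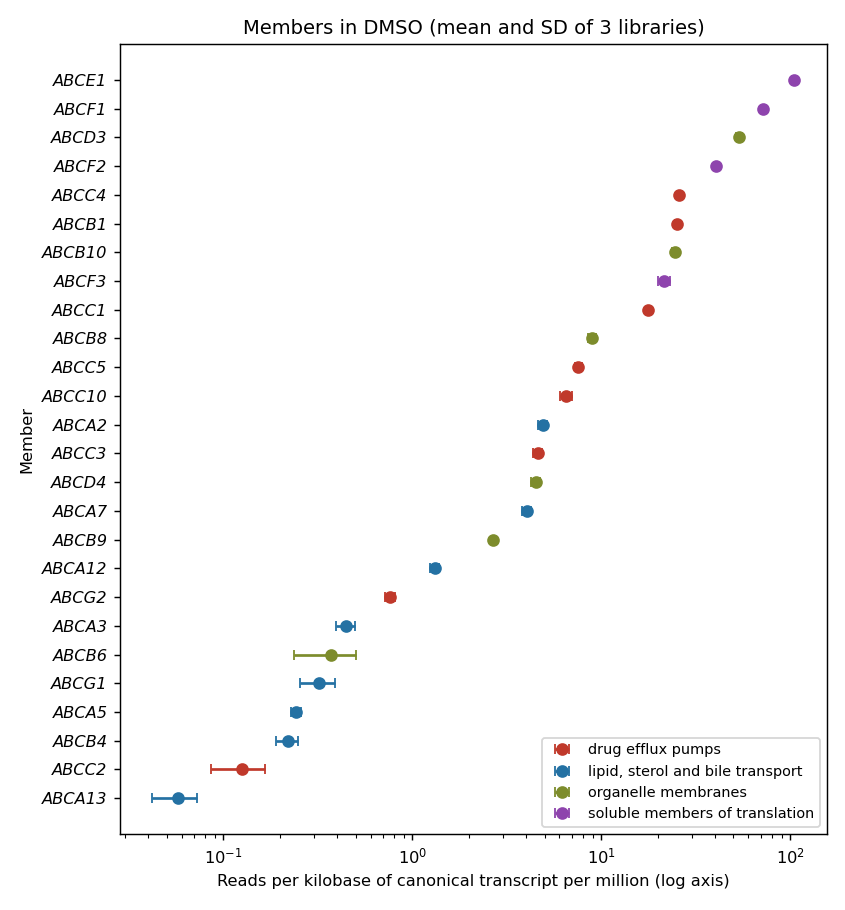
Level of the members shown in DMSO, in CPM per kilobase of canonical transcript on a log axis, with points for the mean and bars for the SD of 3 libraries, coloured by role. ABCE1 is highest at 104 and ABCA13 lowest at 0.0573, with ABCG2 at 0.76 below 6 of the other 7 pumps.

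The 0.5 CPM level put ABCC2 (0.727 CPM over all libraries) just inside and ABCA1 (0.441 CPM) and ABCC6 (0.356 CPM) just outside. The 18 symbols outside include 1 listed drug pump, ABCC11, at 0.187 CPM, and 5 symbols with 0 reads in all libraries (ABCA9, ABCB5, ABCC12, ABCC13 and ABCD2). All 28 members reached 0.5 CPM in each of the 4 groups and were tested.

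Whether AHR agonists move the pumps within 1 h was asked first with ABCG2. Its level rose with TCDD and, by less, with kynurenine, and did not pass the test with CH223191. In DMSO the 3 libraries gave 3.28, 2.97 and 3.34 CPM, a mean of 3.2 ± 0.202 (SD, n = 3) from 86, 82 and 91 reads. With TCDD they gave 8.1, 7.77 and 8.59 CPM (8.15 ± 0.413, from 199, 178 and 209 reads). Every TCDD library was above every DMSO library.
The difference was 2.55-fold, or 1.35 on the log2 scale (SE 0.116, 95% interval 1.12 to 1.59), with an adjusted p of 8.1e-11 in edgeR's quasi-likelihood test with Benjamini-Hochberg adjustment over 13619 genes, which is used throughout. In bulk RNA, more cells expressing a gene and more RNA per cell cannot be told apart, here and below.

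With kynurenine the ABCG2 libraries gave 4.95, 6.32 and 6.02 CPM (5.76 ± 0.718, from 139, 169 and 149 reads). All were above all DMSO libraries and below all TCDD libraries, and the lowest was replicate 1. Against DMSO the difference was 1.8-fold, 0.85 on the log2 scale (SE 0.121, 95% interval 0.60 to 1.09, adjusted p = 5.6e-05 in edgeR). Without replicate 1 it was 0.95 (adjusted p = 2.2e-06). TCDD exceeded kynurenine directly by 1.42-fold, 0.50 on the log2 scale (SE 0.106, 95% interval 0.29 to 0.72, adjusted p = 0.0013), and by 0.40 without replicate 1 (adjusted p = 0.029).

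With CH223191 the ABCG2 libraries gave 2.63, 2.71 and 2.99 CPM (2.78 ± 0.19, from 73, 76 and 65 reads). The highest of them overlapped the lowest DMSO library. The difference from DMSO was -0.21 on the log2 scale with a 95% interval of -0.49 to 0.07 (edgeR adjusted p = 0.26), so a fall of up to 0.49 is within the interval. Against CH223191, ABCG2 was 2.95-fold higher with TCDD (adjusted p = 7e-13) and 2.08-fold higher with kynurenine (adjusted p = 3.3e-08). The latter log2 difference was 1.06, and 1.16 without kynurenine replicate 1. The order of the group means was thus TCDD, kynurenine, DMSO and CH223191, and the last pair of neighbours was not separated by the test.

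The level of ABCG2 stayed small beside that of the 8 pumps together. ABCG2 made up 0.863 ± 0.0524% (SD, n = 3) of the summed RPKM of the 8 pumps in DMSO. This share was 2.24 ± 0.126% with TCDD, 1.62 ± 0.129% with kynurenine and 0.822 ± 0.0766% with CH223191. The summed pump level itself was 88 ± 0.232 RPKM in DMSO and 86.7 ± 1.43 with TCDD. It was 84.3 ± 4.71 with kynurenine, where replicate 1 gave 79 and the other libraries 86 and 88 RPKM, and 80.5 ± 2.11 with CH223191.

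**Figure D2:**
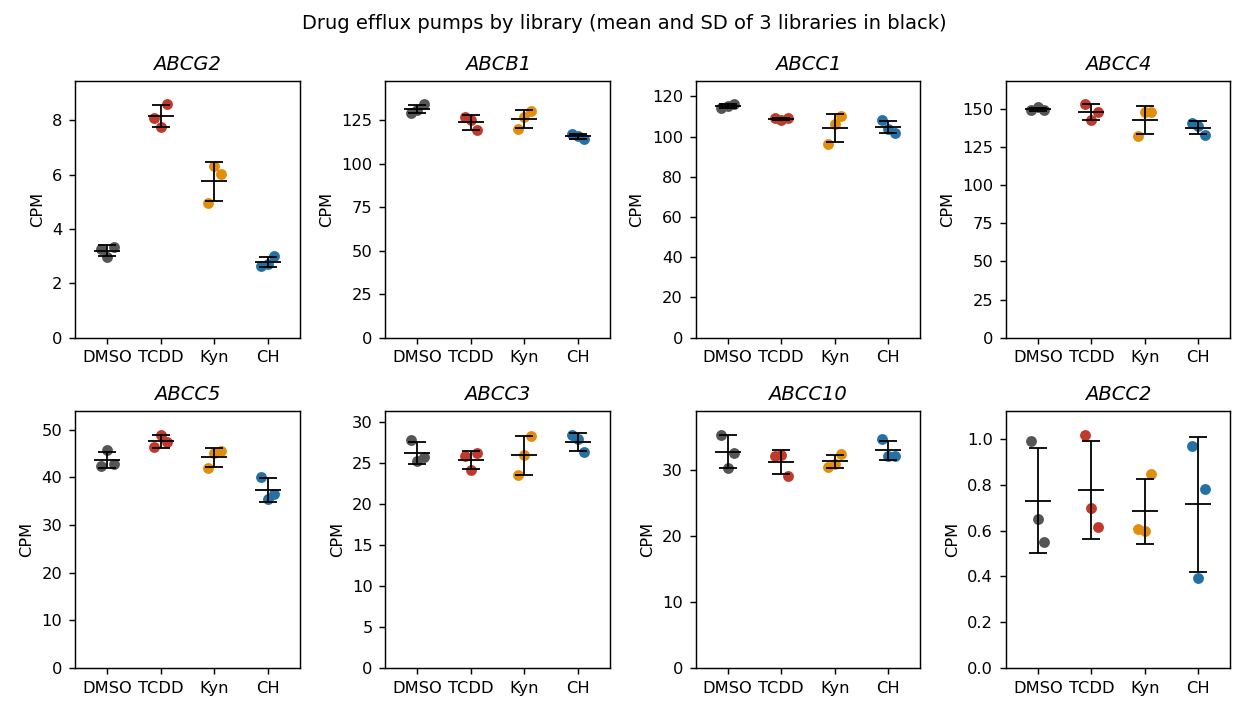
CPM of the 8 drug efflux pumps, with 1 panel per gene and 1 point per library, the mean and SD of 3 libraries in black, and an axis from 0 in each panel. ABCG2 lies at 7.77 to 8.59 with TCDD and 4.95 to 6.32 with kynurenine, above the 2.97 to 3.34 of DMSO. The group means of the other 7 pumps differ less relative to their level, and ABCC2 scatters within groups (0.393 to 0.972 with CH223191).

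The other 7 pumps were not called with either agonist. In TCDD against DMSO ABCG2 was the only member called, 1 of 28 or 3.57%, against 11.7% of all genes tested (5.91% higher and 5.83% lower). After GC content and length trends were removed 1 was higher (ABCG2) and 2 lower, ABCA12 and the pump ABCB1 (adjusted p = 0.0029 for ABCB1). The median log2 difference was -0.03 over the 8 pumps, -0.00037 over the 20 other members and 0.00084 over all genes. In kynurenine against DMSO ABCG2 was again the 1 member called, where 0.294% of all genes passed (0.154% higher and 0.14% lower), and the medians were -0.066, -0.029 and -0.003. Without kynurenine replicate 1 that count was also 1. The comparisons with DMSO share the same 3 control libraries and are not independent of each other.

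Among these 7 pumps ABCC5, an exporter of cyclic nucleotides and nucleotide analogues, gave 42.5, 45.7 and 42.9 CPM in DMSO and 46.3, 49 and 47.4 CPM with TCDD. The groups did not overlap, and the log2 difference of 0.12 had an adjusted p of 0.12. ABCB1 gave 129, 131 and 134 CPM in DMSO, 127, 125 and 119 CPM with TCDD, and 120, 127 and 130 CPM with kynurenine. Its TCDD libraries lay below all DMSO libraries, at a log2 difference of -0.09 (95% interval -0.17 to -0.01, adjusted p = 0.12), and its kynurenine libraries overlapped them.
ABCC1 gave 114, 115 and 116 CPM in DMSO, 109, 108 and 109 with TCDD and 96.4, 106 and 110 with kynurenine. Both exposures lay below DMSO without passing the test (log2 differences of -0.08 and -0.14, adjusted p = 0.21 and 0.16). The kynurenine difference was -0.09 without replicate 1, the library with 96.4 CPM.

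With CH223191 4 of the 8 pumps fell and 0 rose, with a median log2 difference of -0.13 against 0.00097 over all genes. The falls were between 0.12 and 0.23 on the log2 scale. Over all 28 members 12 passed the test, 5 higher and 7 lower, which is 42.9% where 32.8% of all genes passed (15.9% higher and 16.9% lower). With libraries scaled by their totals alone 5 were higher and 4 lower, and in DESeq2 3 were higher and 7 lower.

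ABCC5 fell most among the pumps: the CH223191 libraries gave 40.1, 35.4 and 36.6 CPM, all below the lowest DMSO library. The log2 difference was -0.23 (SE 0.0508, adjusted p = 0.00065 in edgeR). Here the exposures parted furthest among pumps other than ABCG2, since ABCC5 was 1.27-fold higher with TCDD than with CH223191 (0.35 on the log2 scale, adjusted p = 1.3e-06) and 0.24 higher with kynurenine (adjusted p = 0.00034, and 0.28 without replicate 1).

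ABCB1, the broadest of the drug pumps in substrates, gave 117, 116 and 114 CPM with CH223191, below all DMSO libraries. The log2 difference was -0.18 (SE 0.0374, 95% interval -0.26 to -0.10, adjusted p = 0.00026), and the gene lies at chr7:87503017-87713323 beside ABCB4. ABCC1 gave 108, 104 and 102 CPM, again below DMSO without overlap (-0.13, SE 0.0399, adjusted p = 0.0099). ABCC4 gave 149, 151 and 149 CPM in DMSO and 141, 139 and 133 CPM with CH223191. It fell by 0.12 on the log2 scale (SE 0.04, adjusted p = 0.016), and the call was lost without CH223191 replicate 3 and when libraries were scaled by their totals alone (adjusted p up to 0.088).

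The remaining 3 pumps did not pass in any comparison. ABCC3, the basolateral exporter of bile acid and glucuronide conjugates, averaged 26.2 CPM in DMSO and 27.6 with CH223191 (log2 difference 0.08, 95% interval -0.05 to 0.20). ABCC10 averaged 32.8 CPM in DMSO and 33 with CH223191, and its exons overlap those of DLK2 on the opposite strand by 76 bases. ABCC2, the luminal exporter of conjugates, rested on 11 to 27 reads per library, so its interval for TCDD of -0.55 to 0.75 leaves changes of this size undetectable at this depth.

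The 20 other members held the largest responses to CH223191, and these were among the lipid and sterol transporters. Of 8 such members 4 rose and 0 fell, where 15.9% of all genes rose and 16.9% fell, with a median log2 difference of 0.23. The calls of 2 of the 4, ABCA3 and ABCB4, were lost in several alternatives. With TCDD and with kynurenine 0 of the 20 passed the adjusted test in edgeR or DESeq2, where 11.7% and 0.294% of all genes passed in edgeR. At an unadjusted p under 0.05 in edgeR stood 2 of the 20 with TCDD, beside 3377 of all 13619 genes. With kynurenine these were 3 of the 20 and 913 of all genes.

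ABCG1, which loads cholesterol onto high-density lipoprotein and lies at chr21:42199689-42297244, gave 0.877, 1.19 and 0.808 CPM in DMSO from 23, 33 and 22 reads. With CH223191 it gave 3.1, 2.36 and 2.76 CPM from 86, 66 and 60 reads. Every CH223191 library stood far above every other library in the study, the highest of which had 1.19 CPM.
The difference was 2.84-fold, 1.5 on the log2 scale (SE 0.212, 95% interval 1.07 to 1.93, adjusted p = 7.7e-07). TCDD gave 1.14, 1 and 0.904 CPM and kynurenine 0.57, 0.86 and 1.17 CPM, which overlapped DMSO. Their log2 differences of 0.08 and -0.17 had intervals of -0.45 to 0.61 and -0.70 to 0.37. ABCG1 was therefore also lower with TCDD than with CH223191 (-1.42, adjusted p = 2.1e-06) and lower with kynurenine (-1.67, adjusted p = 2e-07, and -1.43 without replicate 1).

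ABCA12, which loads glucosylceramide into the lamellar granules of keratinocytes and lies at chr2:214931542-215138626, also rose. It gave 12.3, 11.5 and 12.8 CPM in DMSO and 19.1, 18.3 and 17.2 CPM with CH223191. The groups did not overlap, and the difference was 1.5-fold, 0.58 on the log2 scale (SE 0.0752, adjusted p = 1.6e-07).
With TCDD ABCA12 gave 9.77, 11 and 10.4 CPM and with kynurenine 9.16, 10.1 and 10.9 CPM, all below all DMSO libraries. Those differences of -0.23 and -0.28 on the log2 scale did not pass the test (adjusted p = 0.063 and 0.21, and for kynurenine -0.22 without replicate 1). The TCDD difference passed at -0.27 without DMSO replicate 2 (adjusted p = 0.04) and at -0.33 after GC content and length trends were removed (adjusted p = 0.0056). Direct comparison placed ABCA12 lower with TCDD than with CH223191 (log2 difference -0.81, adjusted p = 2e-10) and lower with kynurenine (-0.86, adjusted p = 5.4e-11, and -0.80 without replicate 1).

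ABCA3, the phospholipid transporter of lung surfactant, gave 3.32, 2.86 and 2.64 CPM in DMSO and 3.74, 3.89 and 4 CPM with CH223191. The groups did not overlap, and the rise of 0.40 on the log2 scale had an adjusted p of 0.023. ABCB4, which moves phosphatidylcholine into bile, gave 1.07, 0.94 and 0.808 CPM in DMSO and 1.66, 1.46 and 1.15 CPM with CH223191, from 22 to 28 and 25 to 46 reads. It rose by 0.62 (SE 0.237, adjusted p = 0.043).
Both calls were fragile. The ABCA3 call was lost without DMSO replicate 2 or 3, without CH223191 replicate 2 or 3 and in DESeq2 (adjusted p up to 0.1). The ABCB4 call was lost without any 1 of the DMSO libraries, without CH223191 replicate 1 or 2, in DESeq2 and when the replicate number was a block (adjusted p up to 0.18). ABCA2, ABCA5, ABCA7 and ABCA13 did not pass against DMSO. ABCA13 gave 1.26, 1.27 and 1.23 CPM with TCDD and 1.04, 0.428 and 0.506 CPM with CH223191, a direct difference of 0.90 (adjusted p = 0.013) that was lost without CH223191 replicate 2 or 3 (adjusted p up to 0.11).

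**Figure D3:**
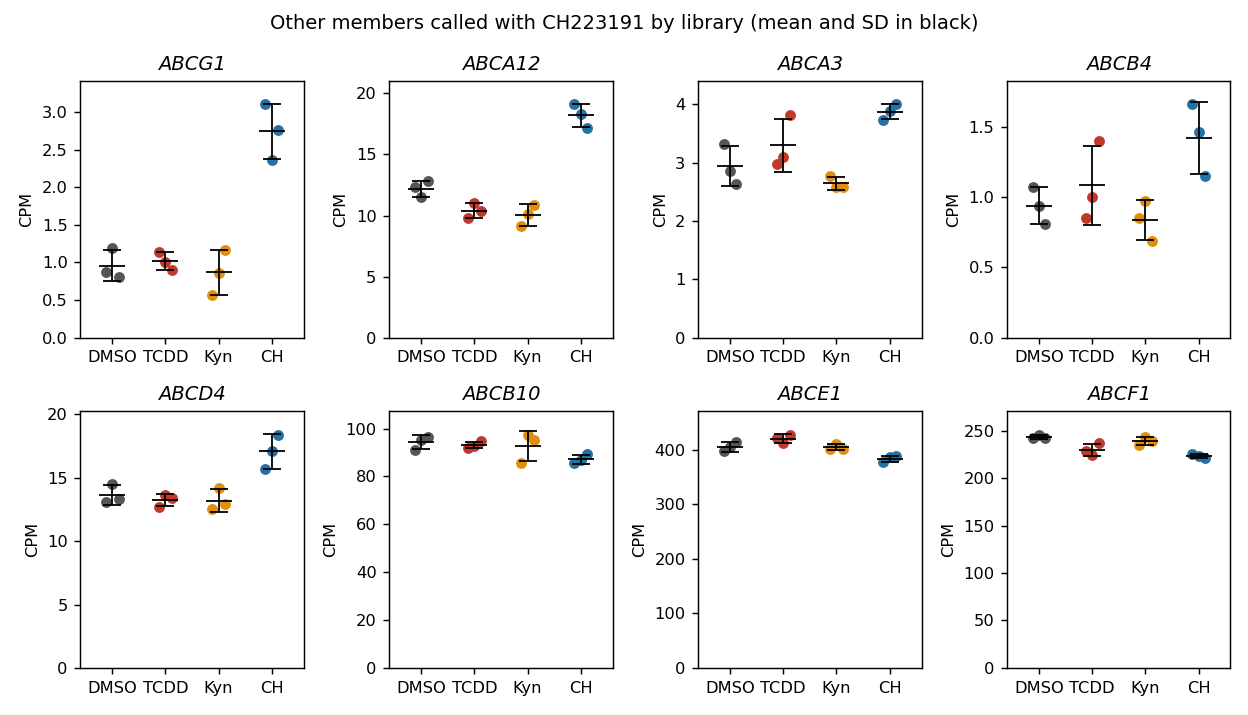
CPM of the 8 other members called with CH223191, with 1 panel per gene and 1 point per library, the mean and SD of 3 libraries in black, and an axis from 0. ABCG1 (2.36 to 3.1) and ABCA12 (17.2 to 19.1) stand above all other libraries, while ABCB10, ABCE1 and ABCF1 differ from DMSO by 0.08 to 0.12 on the log2 scale.

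Of the 8 members of organelle membranes 1 rose and 1 fell with CH223191, 25% called against 32.8% of all genes (15.9% higher and 16.9% lower). ABCD4, which takes part in the release of vitamin B12 from lysosomes, gave 13.1, 14.5 and 13.3 CPM in DMSO and 15.7, 17.1 and 18.4 CPM with CH223191. It rose without overlap by 0.32 on the log2 scale (SE 0.0741, adjusted p = 0.0011).
ABCB10, an inner mitochondrial membrane protein of haem metabolism, gave 91, 95.3 and 96.6 CPM in DMSO and 85.5, 86.8 and 89.2 CPM with CH223191. This fall of 0.11 on the log2 scale (SE 0.042, adjusted p = 0.034) was lost in 6 of 20 alternatives (adjusted p up to 0.13). It was lost without DMSO replicate 2 or 3, without CH223191 replicate 1 or 2, with library totals alone and with a 5 CPM filter.
ABCB6, ABCB8, ABCB9 and ABCD3, a peroxisomal importer of fatty acids, did not pass in any comparison. Exons of ABCB9 overlap OGFOD2 by 1656 bases and ARL6IP4 by 1590 bases on the opposite strand, so its reads may be shared.

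Of the 4 soluble members 2 fell with CH223191, both by little, and 0 rose, where 16.9% of all genes fell and 15.9% rose. ABCF1 gave 242, 246 and 242 CPM in DMSO and 226, 223 and 221 CPM with CH223191, a fall of 0.12 on the log2 scale (SE 0.0324, adjusted p = 0.0033) without overlap. ABCE1 gave 397, 405 and 414 CPM in DMSO and 377, 386 and 388 CPM with CH223191. Its fall of 0.08 (adjusted p = 0.045) held in 5 of 20 alternatives (adjusted p up to 0.17) and was lost without any 1 library other than DMSO replicate 1 or kynurenine replicate 1. Its exons overlap OTUD4 by 276 bases and ANAPC10 by 132 bases on the opposite strand.
Against TCDD, where ABCE1 gave 421, 413 and 428 CPM, the direct difference was 0.13 (adjusted p = 9e-04). ABCF2 and ABCF3 did not pass in any comparison.

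The agonists were also compared directly with CH223191. Between TCDD and CH223191 8 of 28 members passed, 28.6% against 37.1% of all genes (19% higher with TCDD and 18.1% lower). Of the pumps 3 were higher with TCDD (ABCG2, ABCC5 and ABCC4) and 0 lower, while of the 20 others 2 were higher and 3 lower. The ABCC4 call was lost without TCDD replicate 1 or 3, without CH223191 replicate 2 or 3, with library totals alone and with GC content and length trends removed (adjusted p up to 0.2).
Between kynurenine and CH223191 9 members passed, 32.1% against 33% of all genes (16.6% higher with kynurenine and 16.4% lower). Of the pumps 3 were higher with kynurenine (ABCG2, ABCC5 and ABCB1) and 0 lower, and of the 20 others 1 was higher (ABCF1) and 5 lower (ABCG1, ABCA12, ABCB4, ABCA3 and ABCD4). Without kynurenine replicate 1 ABCB10 and ABCC4 were added as higher (0.14 and 0.10, adjusted p = 0.0062 and 0.038), 11 in all. The calls of ABCB1, ABCF1 and ABCB4 depended on single libraries. They were lost without kynurenine replicate 2 (ABCB1, ABCF1) or 3 (ABCB1, ABCB4), or without CH223191 replicate 1 (ABCB4), 2 (ABCF1) or 3 (ABCB1, ABCF1), at adjusted p of up to 0.12.
The split of 4 higher and 5 lower became 2 and 6 with library totals alone and 9 and 5 after GC content and length trends were removed.
Between TCDD and kynurenine ABCG2 was the 1 member that passed, where 9.19% of all genes did (5.1% higher with TCDD and 4.09% lower). A joint test of the 4 groups called 12 of 28 members, with 43.6% of all genes called. The shares of members called were near or below the background in every comparison except CH223191 and kynurenine against DMSO, where they rested on 12 members and on 1.

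**Figure D4:**
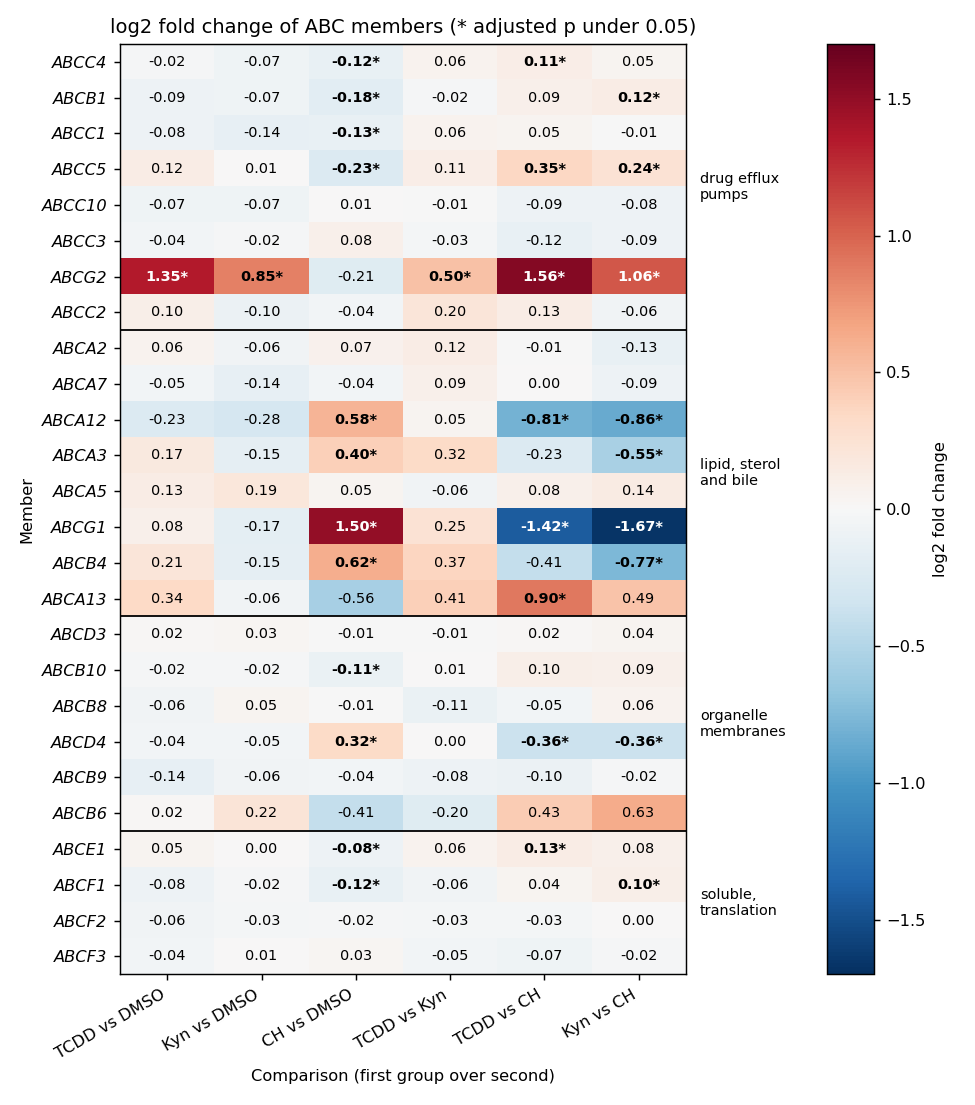
Log2 fold change of the members shown (rows, grouped by role) in the 6 comparisons (columns, first group over second), with an asterisk at an adjusted p under 0.05 in edgeR. ABCG2 is the only row marked in both agonist columns against DMSO, at 1.35 and 0.85, and the CH223191 column against DMSO holds 12 marks, from 1.5 in ABCG1 to -0.23 in ABCC5.

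Family members that carry other symbols were read beside these. CFTR, the chloride channel of the family, averaged 170 CPM in the vehicle group and 181, 151 and 179 CPM with TCDD, kynurenine and CH223191. It was lower with kynurenine than with TCDD (0.26 higher with TCDD, adjusted p = 5.1e-05), and kynurenine replicate 1 was the lowest library at 137 CPM, against 151 and 166 CPM in the other 2. Without that library the difference was 0.19 (adjusted p = 0.00052). Kynurenine against DMSO gave -0.17 for CFTR and did not pass, and -0.10 without replicate 1 (adjusted p = 0.53). Kynurenine against CH223191 gave -0.25 and passed, and -0.18 without replicate 1 (adjusted p = 0.00021). TAP2, a subunit of the peptide transporter of antigen presentation, fell by 0.15 with CH223191 (adjusted p = 0.0038), and its partner TAP1 did not pass (-0.07, adjusted p = 0.2).

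ABCG2 was set beside other AHR target genes in the same libraries. With TCDD CYP1A1 rose 133-fold, CYP1B1 by 2.36, AHRR (the AHR repressor) by 1.9, TIPARP by 1.72 and NQO1, a quinone reductase, by 0.17 on the log2 scale, against 1.35 for ABCG2. With kynurenine the genes divided. CYP1A1 rose by 1.65, ABCG2 by 0.85 and NQO1 by 0.15 (adjusted p = 0.023), whereas CYP1B1 was lower at -0.37 (adjusted p = 2.4e-07) and TIPARP at -0.21 (adjusted p = 0.027), and AHRR stood at -0.28 without passing (adjusted p = 0.55). Without kynurenine replicate 1 CYP1A1 gave 1.73 and CYP1B1 -0.33 and both passed, while the calls of TIPARP (-0.18, adjusted p = 0.15) and NQO1 (0.13, adjusted p = 0.096) were lost.
With CH223191 4 of the 8 AHR reference genes fell and 2 rose, 75% against 32.8% of all genes (15.9% higher and 16.9% lower). CYP1A1, CYP1B1, AHRR and TIPARP fell by 2.67, 1.33, 1.34 and 0.40, NQO1 rose from 188 to 229 CPM (0.29, adjusted p = 1.3e-08) and ARNT rose by 0.15 (adjusted p = 0.019). The ABCG2 difference of -0.21 did not pass. TCDD exceeded kynurenine by 5.40 on the log2 scale for CYP1A1, 2.73 for CYP1B1, 2.18 for AHRR and 1.93 for TIPARP, and by 0.50 for ABCG2. Without kynurenine replicate 1 these were 5.32, 2.69, 2.11, 1.9 and 0.40.

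ABCG1 was set beside genes of sterol control, since it is a known target of the liver X receptors. Of 14 such genes 5 rose, 1 fell and 8 were not called with CH223191. That is 42.9% called against 32.8% of all genes (15.9% higher and 16.9% lower), with a median log2 difference of 0.066. SREBF1, the transcription factor of fatty acid synthesis, rose from 104 to 139 CPM (0.42, adjusted p = 8.6e-11), SMPDL3A by 0.34 (adjusted p = 0.0029) and SCD by 0.14 (adjusted p = 0.0015). RXRA, the partner receptor, fell by 0.21 (adjusted p = 0.00012). The receptors themselves, NR1H2 and NR1H3, gave 0.04 and 0.00 and did not pass. ABCA1, a lipid and sterol transporter outside the 0.5 CPM level and not among the 14, did not share the rise of ABCG1. It averaged 0.516 CPM in DMSO and 0.497 CPM with CH223191, from only 9, 12 and 21 and 16, 14 and 9 reads. With TCDD 1 of the 14 rose, MYLIP (0.33, adjusted p = 7.7e-05). That is 7.14% against 11.7% of all genes (5.91% higher and 5.83% lower). With kynurenine 0 passed in edgeR, where 0.294% of all genes did. At an unadjusted p under 0.05 stood 1 of the 14, beside 913 of all 13619 genes.

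**Figure D5:**
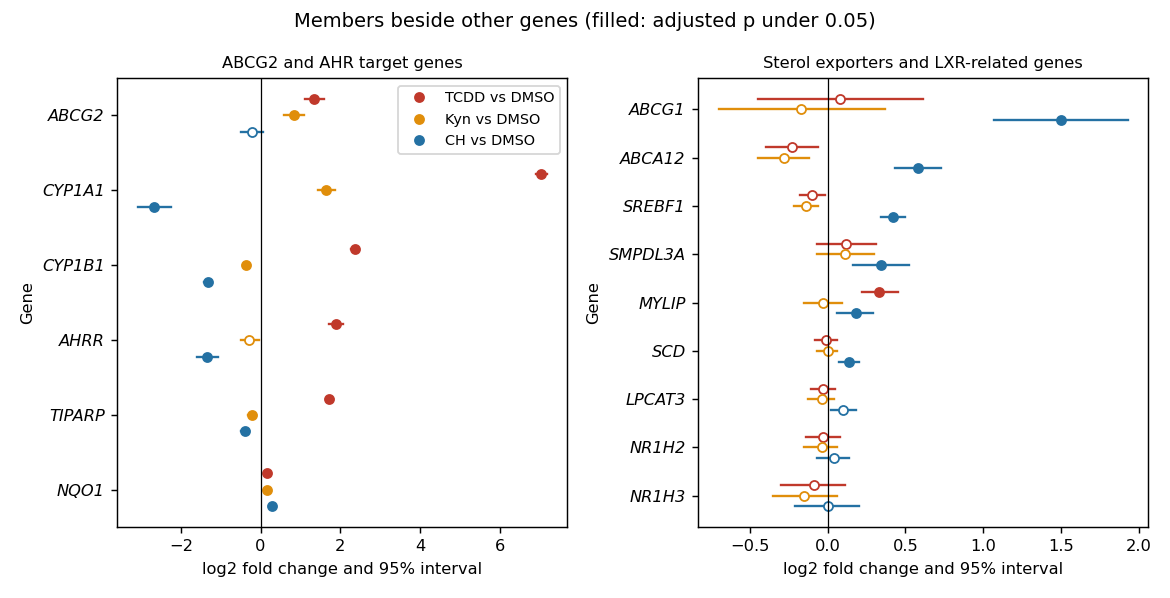
Log2 fold change against DMSO with its 95% interval for ABCG2 and 5 AHR target genes (left) and for ABCG1, ABCA12 and 7 sterol genes (right), 1 colour per exposure, filled where the adjusted p is under 0.05. ABCG2 is filled for TCDD and kynurenine, and ABCG1 (1.5), ABCA12 (0.58) and SREBF1 (0.42) are filled and positive for CH223191.

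Drug carriers outside the family were read in the same way. Of 17 listed 13 were tested, and with CH223191 3 rose and 7 fell, where 15.9% of all genes rose and 16.9% fell, with a median log2 difference of -0.14. SLC28A3, a concentrative nucleoside importer, rose 2.02-fold from 1.15 to 2.32 CPM (adjusted p = 0.00037), and MVP, the major vault protein, rose by 0.30 (adjusted p = 7.8e-06). SLCO4A1, an organic anion carrier, and SLC19A1, the reduced folate carrier that also imports methotrexate, each fell by 0.42 (adjusted p = 1.4e-09 and 4.3e-09). With TCDD 1 rose and 2 fell, 23.1% against 11.7% of all genes (5.91% higher and 5.83% lower). SLC29A1, the equilibrative nucleoside carrier, was lower with TCDD (-0.22, adjusted p = 7.7e-05), kynurenine (-0.16, adjusted p = 0.035) and CH223191 (-0.20, adjusted p = 4e-05). Its kynurenine call was lost without replicate 1 (-0.14, adjusted p = 0.14).

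Of 18 transcription factors known to act on ABC genes 15 were tested. With TCDD 5 rose and 1 fell, where 5.91% of all genes rose and 5.83% fell. Among those that rose, PPARA rose by 0.42 (adjusted p = 1.5e-05), PPARG by 0.31 (adjusted p = 8.2e-05) and NFE2L2, the oxidative stress factor, by 0.26 (adjusted p = 1.1e-06). With kynurenine 0 passed, and 0 passed at an unadjusted p under 0.05 in edgeR, where 913 of all 13619 genes did. With CH223191 6 rose and 0 fell, 40% called against 32.8% of all genes (15.9% higher and 16.9% lower). Among the 6 was FOXO3 (0.23, adjusted p = 0.00082).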

How the data were processed

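RNA of DLD1 cells was sequenced in 4 groups of 3 libraries, 12 in all. The files the authors deposited hold raw counts of reads for each gene symbol. Per the submitters' processing notes, reads were trimmed with Trim Galore, aligned to hg38 with STAR 2.7.2b, handled with SAMtools 1.9 and counted with HTSeq. The protocol in the labels names another STAR version and leaves out CH223191, and the strand setting and annotation release are not given in the sources used here. Reads outside genes were 6.59 to 8.48% and reads aligned to several places 2.63 to 3.91%, and these stayed out of library sizes and tests.

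Tests used edgeR 4.0.16 and limma 3.58.1 under R 4.3.3. filterByExpr with a minimum count of 10 kept 13619 genes. Libraries were scaled by TMM (0.988 to 1.02). One quasi-likelihood model was fitted to all 12 libraries without a block, the 6 pairs of groups were compared 2-sided and p-values were adjusted by Benjamini-Hochberg over all genes of a comparison, with 0.05 as the threshold. Adjusted p-values come from this fit with 3 libraries per group unless a sentence names another setting, a left-out library or a range over alternatives. Errors of fold changes are standard errors. RPKM used canonical transcripts of GENCODE 44. DESeq2 1.42.0, other scalings, filters, a replicate block, removal of GC content and length trends and leaving out each library were alternatives. The statistical scripts were tested on simulated data. No libraries were identical.

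Named are all pumps, every member called in any comparison, the members beside the 0.5 CPM level, and up to 4 genes of smallest p from each other list. A few genes are not reported here. The members and lists were chosen with earlier results of these data known.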

Additional observations from a re-analysis of the deposited data

How the results depend on the processing

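The ABCG2 calls held in each of 20 alternatives in all 5 comparisons where it was called. With CH223191 against DMSO ABCA12, ABCB1, ABCC1, ABCC5, ABCD4 and ABCF1 held in all 20 and ABCG1 in all 19 that tested it. No single-member difference that was called changed sign. With TCDD against DMSO the count of members called rose from 1 to 3 when GC content and length trends were removed (ABCG2 higher, ABCA12 and ABCB1 lower) and ranged from 1 to 2 when 1 library was left out, with ABCA12 added without DMSO replicate 2. With CH223191 against DMSO the count fell from 12 to 7 with a filter of at least 5 CPM in 3 libraries, which tests 21 members, and ranged from 8 to 12 when 1 library was left out. Between kynurenine and CH223191 it rose from 9 to 14 (9 higher, 5 lower) when GC content and length trends were removed. The causes were not tested. Leaving out single libraries also added ABCA13 without CH223191 replicate 1 (against DMSO, adjusted p = 0.016, and against kynurenine, 0.024), ABCB1 without TCDD replicate 3 or kynurenine replicate 1 and ABCB10 without kynurenine replicate 1 (TCDD against CH223191). Between kynurenine and CH223191 it added ABCA2 without kynurenine replicate 3 or CH223191 replicate 3, ABCB6 without CH223191 replicate 3 and ABCE1 without DMSO replicate 1.

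Counts over all genes moved more. TCDD against DMSO called 1599 genes, 851 without DMSO replicate 1, 1020 without DMSO replicate 3 and 805 without TCDD replicate 3. TCDD against kynurenine called 1252, 576 without TCDD replicate 3 and 658 without kynurenine replicate 1. Kynurenine against DMSO called 40, 65 with no low-count filter and 26 with only the groups compared.

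Libraries with the same replicate number did not deviate together (correlations -0.111 to 0.097 in 18 pairs, -0.108 to 0.139 in 36 other pairs). With the replicate number as a block the members called were 1 with TCDD, 1 with kynurenine and 10 with CH223191 against DMSO, 1 between TCDD and kynurenine, 8 between TCDD and CH223191 and 9 between kynurenine and CH223191, with 10 in the joint test. Depth limits ABCC2, ABCA13, ABCB4, ABCB6, ABCA5 and ABCG1, which rest on 11 to 86 reads per library, and ABCG2 in DMSO and CH223191, with 65 to 91.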
